A study of Papio anubis with 8 samples.

Results

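The genes described here make, sense, move and store sterols and fatty acids. They were taken from a list of 47 gene symbols, by matching each symbol to the rows of an expression table of 37053 genes, and 44 of the 47 had a row. For CYP51A1, CYP46A1 and PLIN2 no row carries the symbol, and they are not analysed here by it. All 44 passed the filter on low counts that left 16874 genes. The table covers 8 hippocampal RNA libraries, AMB3 to AMB10, of the olive baboon (Papio anubis). The tissue was fetal, taken at 0.9 of term, and the study's design contrasts dams by their body fat and their level of leptin, a hormone of fat tissue. The labels give neither the maternal group, nor the sex, treatment or genotype of any fetus, and leave unsaid whether every library is from its own animal. All 8 libraries therefore stand as single unassigned samples, each value is given per library or as the lowest, median and highest, and libraries were not compared as groups.

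Cholesterol does not cross the blood-brain barrier in quantity, so the brain makes its own from acetyl-CoA through the mevalonate pathway. When membrane sterol is low, the escort protein SCAP carries the SREBP transcription factors to the Golgi, where they are cut and released to switch on the genes of sterol and fatty acid synthesis, and INSIG proteins hold SCAP back when sterol is plentiful. In the developing brain neurons and astrocytes make sterol early, and oligodendrocytes later make large amounts of sterol and very long chain fatty acids for myelin. Astrocytes also pack lipid onto apolipoprotein E, which ABC transporters load and receptors such as LRP1 take up.

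Total counts per library ran from 40405016 in AMB9 up to 71648801 in AMB10. Levels are counts per 1000000 (CPM) at library sizes corrected by TMM, the trimmed mean of M-values. The range of a gene is its highest minus its lowest log2 CPM over the 8 libraries. All 6 hippocampal markers were detected in every library. NEUROD6, a transcription factor of pyramidal neurons, ranged from 129 CPM in AMB7 to 311 in AMB5, with a median of 233, and FIBCD1, a marker of the CA1 field, ranged from 9.003 CPM in AMB5 to 399.5 in AMB8, with a median of 49.5. The summed level of the 6 genes was lowest in AMB7, at 343 CPM, and highest in AMB8, at 1076. Summed markers of myelinating oligodendrocytes differed more, from 805 CPM in AMB5 to 5171 in AMB10, and the astrocyte sum was lowest in AMB7 (2835 CPM) and highest in AMB10 (6222 CPM). Summed levels lay from 204 CPM in AMB7 to 613 in AMB10 for oligodendrocyte precursors, from 76.8 CPM in AMB8 to 162 in AMB6 for microglia, from 6587 CPM in AMB6 to 8516 in AMB5 for neurons, from 151 CPM in AMB7 to 224 in AMB4 for endothelium, from 84.7 CPM in AMB8 to 461 in AMB4 for meninges and fibroblasts, from 6.496 CPM in AMB8 to 29.2 in AMB6 for choroid plexus and from 33.9 CPM in AMB8 to 150.3 in AMB9 for red blood cells. Of the choroid plexus sum in AMB6, 22.0 CPM came from AQP1 alone. TTR, FOLR1, KL and CLIC6 were each highest in another library, and TTR, FOLR1 and CLIC6 did not pass the filter on low counts. In bulk tissue, fewer cells of a type and less RNA per cell cannot be told apart.

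As a set, the sterol and fatty acid genes were about as variable as other genes. A range of at least 1 means a 2-fold difference between the highest and the lowest library. It was reached by 14 of the 44 genes (31.8%), against 36.1% of all 16874 genes kept. Without AMB7 it was reached by 9 of the 44, and the share of all genes without AMB7 was not computed. A range of at least 2 was reached by 3 of 44 (6.82%), against 9.0% of all genes. The median range was 0.86 for the 44 genes and 0.77 for all genes. The ranges were unequal between roles: median 0.86 for 12 sterol synthesis enzymes, 0.78 for 5 genes of sterol sensing, 1.16 for 5 genes of sterol turnover and export, 0.66 for 5 fatty acid synthesis genes, 0.71 for 8 elongases and desaturases, and 1.57 for 9 genes of fatty acid transport and use.

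**Figure D1:**
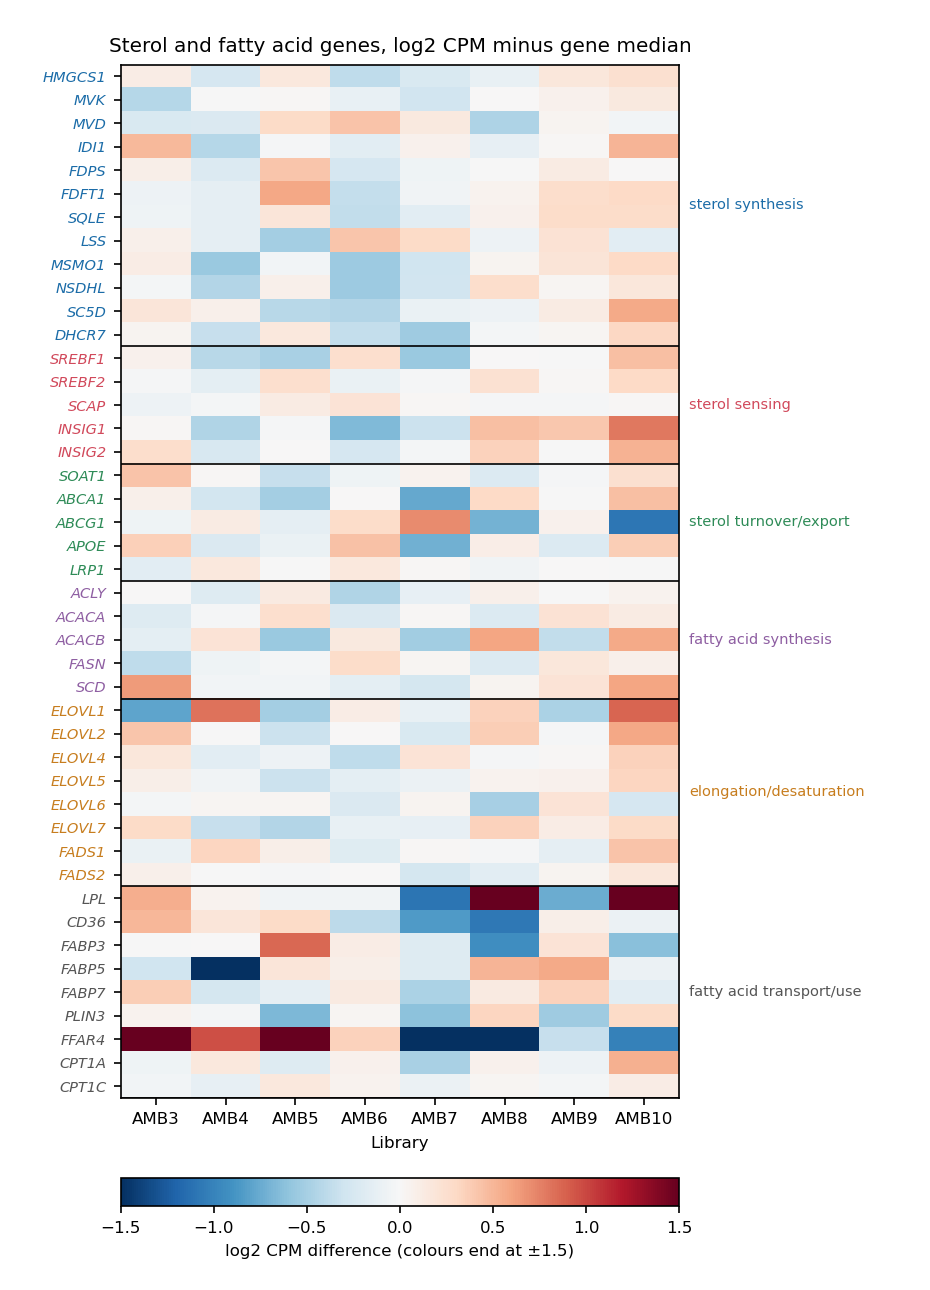
Level of the 44 genes (rows, coloured and grouped by role) in each library (columns), as log2 CPM minus the gene's median over the 8 libraries; red is above and blue below the median, and colours end at a difference of 1.5. AMB10 has the highest level of 18 of the 44 genes, and the darkest cells belong to LPL, FFAR4 and FABP5.

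AMB10 and AMB6 were the libraries in which these genes most often had their extremes. The highest level lay in AMB10 for 18 of the 44 genes, where 16.7% of all genes kept had theirs, and 6 of the 12 sterol synthesis enzymes, 4 of the 5 sterol sensing genes and 6 of the 8 elongases and desaturases were among them. The lowest level lay in AMB6 for 12 genes, among them 6 sterol synthesis enzymes, against 12.5% of all genes. That number was smaller under plain library totals, as given at the end. AMB7 held the lowest level of 10 genes, 4 of them from fatty acid transport and use, against 15.0% of all genes. None of the 44 genes was lowest in AMB9, where 9.57% of all genes were.

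**Figure D2:**
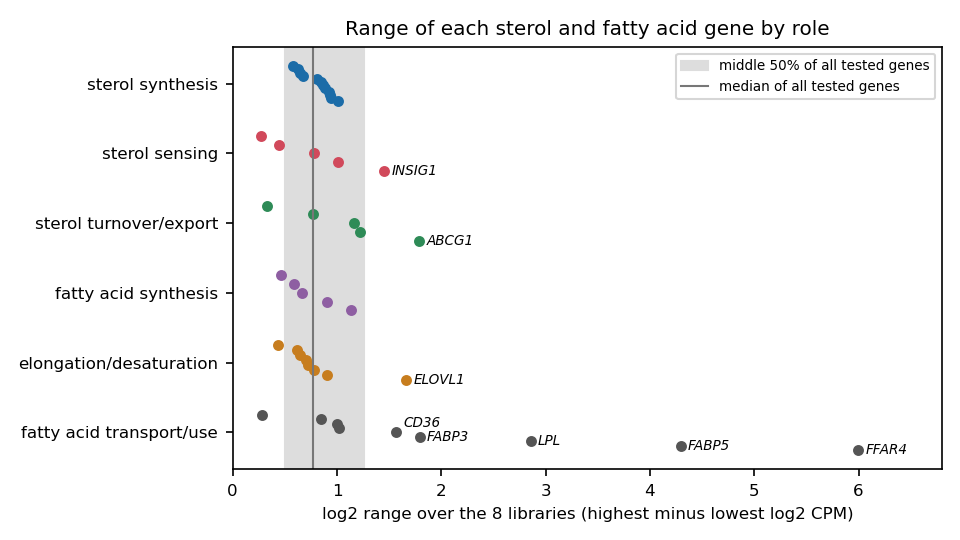
Range of each gene over the 8 libraries (x axis, log2 units) by role (y axis), 1 point per gene, with the middle 50% and the median of all 16874 genes kept as a grey band and line. Many points lie within the band, and FFAR4, FABP5 and LPL lie beyond a range of 2.

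The sterol synthesis enzymes had ranges from 0.58 to 1.01, with a median of 0.86 against 0.77 for all genes kept. SC5D was the 1 enzyme of 12 with a range of at least 1. HMGCS1, the cytosolic synthase that makes HMG-CoA at the head of the pathway (chromosome 5, 42058972 to 42083213, in RefSeq's Panubis1.0 coordinates), stood at 782 CPM in AMB10, 740.2 in AMB9, 739 in AMB5, 712 in AMB3, 611 in AMB8, 565 in AMB7, 553 in AMB4 and 506 in AMB6. AMB10, AMB9, AMB5 and AMB3 formed the upper part of that order, and AMB6, AMB4 and AMB7 the lower. Squalene monooxygenase SQLE, which oxidises squalene in a rate-limiting step, had 145 CPM in AMB9, 145 in AMB10, 135 in AMB5, 125 in AMB8, 114 in AMB3, 109 in AMB4, 108 in AMB7 and 92.9 in AMB6. AMB6 was again lowest, and the range of 0.64 was 0.43 without AMB6.

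MSMO1, the C4-methylsterol oxidase, stood at 272 CPM in AMB10, 253 in AMB9, 239 in AMB3, 226 in AMB8, 215 in AMB5, 179 in AMB7, 151 in AMB6 and 149 in AMB4, so that AMB4 and AMB6 lay apart below the rest. IDI1, the isopentenyl diphosphate isomerase, ranged from 54.1 CPM in AMB4 to 104 in AMB10, with a median of 72.7, and AMB3 was close to AMB10 with 102 CPM. FDFT1, the squalene synthase, ranged from 118 CPM in AMB6 to 225 in AMB5, with a median of 151. FDPS, which makes farnesyl diphosphate, went from 97.3 CPM in AMB6 to 155 in AMB5, with a median of 116, and its range of 0.67 was 0.38 without AMB5. For FDFT1 and FDPS, enzymes of neighbouring steps, AMB5 was highest and AMB6 lowest. NSDHL, of C4 demethylation, ranged from 29.0 CPM in AMB6 to 50.8 in AMB8, with a median of 42.2. DHCR7, the last enzyme of the Kandutsch-Russell branch, ranged from 39.1 CPM in AMB7 to 70.3 in AMB10, with a median of 56.7. MVK, mevalonate kinase, ranged from 16.0 CPM in AMB3 to 23.9 in AMB10, with a median of 21.6. Over all 12 enzymes AMB10 was highest in 6 and AMB6 lowest in 6, and MVK, lowest in AMB3, and DHCR7, lowest in AMB7, were among those that did not share that low library.

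SC5D, the sterol C5-desaturase, had 133 CPM in AMB10, 101 in AMB3, 97.6 in AMB9, 94.3 in AMB4, 84.8 in AMB8, 83.2 in AMB7, 66.9 in AMB5 and 66.0 in AMB6. AMB10 stood alone at the top, and the range of 1.01 was 0.61 without AMB10. MVD, the mevalonate diphosphate decarboxylase, and LSS, lanosterol synthase, followed another order. MVD stood at 101 CPM in AMB6, 92.4 in AMB5, 83.6 in AMB7, 77.5 in AMB9, 73.8 in AMB10, 65.1 in AMB4, 64.8 in AMB3 and 55.04 in AMB8. LSS stood at 104 CPM in AMB6, 95.6 in AMB7, 90.7 in AMB9, 82.5 in AMB3, 74.5 in AMB8, 71.4 in AMB4, 70.1 in AMB10 and 55.01 in AMB5. In both AMB6, where most of the other enzymes were low, was the highest library. The range of LSS, 0.92, was 0.57 without AMB5.

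Taken relative to each enzyme's own median, the 12 enzymes had a median difference in log2 CPM of 0.26 in AMB10, 0.13 in AMB9 and 0.11 in AMB5, and of -0.21 in AMB4 and -0.35 in AMB6. In AMB9 all 12 enzymes lay above their median and in AMB10 10 of 12, while in AMB6 2 of 12 and in AMB4 1 of 12 did. Spearman's rho over the 8 libraries reached 0.738, the lowest value whose exact 2-sided permutation p falls under 0.05, in 18 of the 66 pairs of these enzymes (27.3%), against 4.28% of all pairs of genes kept. The pairs share their libraries and are not independent of each other. The count depended on single libraries: 7 pairs were left without AMB6 (10.6%, against 4.33% of all pairs), 10 without AMB4 (15.2%, against 4.02%) and 11 without AMB10 (16.7%, against 3.32%). Squalene monooxygenase reached this value with 7 of its 11 partners and HMGCS1 with 6, whereas MVD, LSS and SC5D had no such partner. LSS had a negative rho with 10 of 11 partners and MVD with 8 of 11. Among the other 10 enzymes no pair had a negative rho, and the lowest was 0.119. MVD and LSS were singled out after their values were seen.

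**Figure D3:**
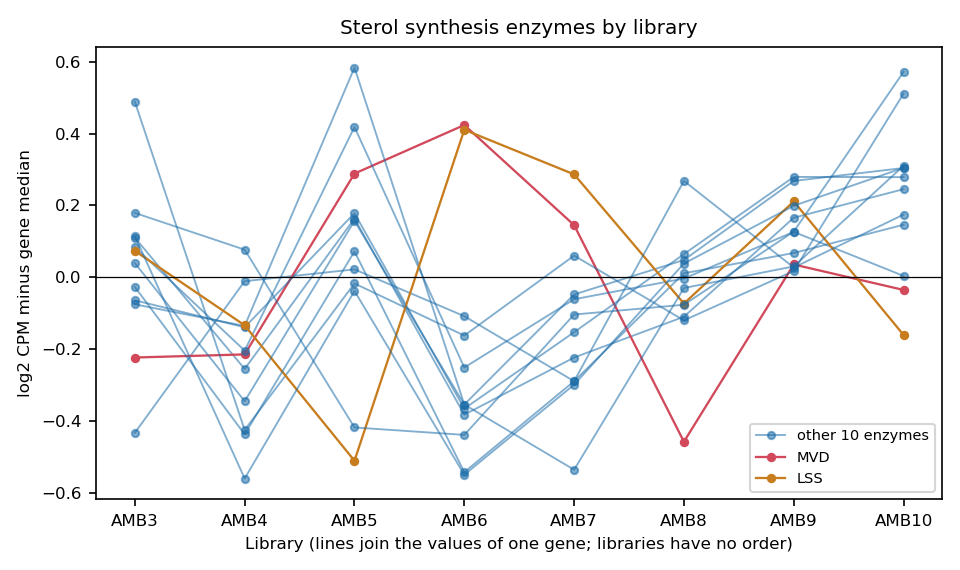
Log2 CPM minus the gene's median (y axis) for the 12 sterol synthesis enzymes in each library (x axis), with MVD in red, LSS in orange and the other 10 enzymes in blue; lines join the values of 1 gene and the libraries have no order. In AMB6 MVD and LSS are the 2 enzymes above 0, and in AMB9 all 12 lie above 0.

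INSIG1 was the most variable gene of sterol sensing. INSIG1, the anchor that retains SCAP and is itself a target of SREBP (chromosome 4, 3963595 to 3975788), had 108 CPM in AMB10, 85.8 in AMB8, 82.9 in AMB9, 63.5 in AMB3, 62.03 in AMB5, 50.4 in AMB7, 46.0 in AMB4 and 39.6 in AMB6. AMB10, AMB8 and AMB9 were high and AMB6 and AMB4 low, and the range of 1.45 exceeded that of 81.0% of all genes kept. Its relative INSIG2 had a smaller spread, from 30.2 CPM in AMB6 to 51.8 in AMB10, with a median of 36.1. SREBF1, which encodes the SREBP of fatty acid synthesis, stood at 48.4 CPM in AMB10, 42.1 in AMB6, 37.1 in AMB3, 35.4 in AMB8, 35.2 in AMB9, 26.5 in AMB4, 25.3 in AMB5 and 24.04 in AMB7. AMB10 and AMB6 were high, and the range of 1.01 was 0.81 without AMB10. SREBF2, which encodes the SREBP of sterol synthesis, ranged from 558 CPM in AMB4 to 761 in AMB10, with a median of 618. SCAP differed least of the 44 genes, from 125 CPM in AMB3 to 151 in AMB6, with a median of 132, a range of 0.27 in these libraries, smaller than that of all but 3.27% of genes kept.

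Sterol export genes did not follow a common order. ABCG1, a half-transporter that passes cholesterol to lipoproteins, had 51.3 CPM in AMB7, 37.9 in AMB6, 34.2 in AMB4, 32.8 in AMB9, 29.9 in AMB3, 28.6 in AMB5, 19.1 in AMB8 and 14.8 in AMB10. AMB7 was highest and AMB10 and AMB8 lowest. ABCA1, which loads lipid onto apolipoproteins, stood at 22.0 CPM in AMB10, 19.8 in AMB8, 17.0 in AMB3, 16.1 in AMB6, 16.0 in AMB9, 13.3 in AMB4, 11.3 in AMB5 and 9.40 in AMB7. The ends of that order were the reverse, with AMB10 and AMB8 at the top and AMB7 at the bottom. APOE, the main apolipoprotein of the brain, had 454 CPM in AMB6, 431 in AMB10, 430.4 in AMB3, 358 in AMB8, 313 in AMB5, 289.9 in AMB9, 287 in AMB4 and 203 in AMB7. AMB6, AMB10 and AMB3 were high, and AMB7 lay apart below the rest.

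The range of APOE, 1.16, was 0.67 without AMB7, and that of ABCA1, 1.22, was 0.96 without AMB7. SOAT1, which esterifies cholesterol for storage, ranged from 10.1 CPM in AMB5 to 17.3 in AMB3, with a median of 12.8. LRP1, the large receptor that takes up APOE particles, ranged from 445 CPM in AMB3 to 558 in AMB4, with a median of 498, a range of 0.33 that was 0.21 without AMB3.

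Among the 5 genes of fatty acid synthesis, ACACB alone had a range of at least 1. ACACB, the acetyl-CoA carboxylase of the mitochondrial surface that curbs fatty acid oxidation, stood at 19.5 CPM in AMB8, 19.3 in AMB10, 15.0 in AMB4, 14.4 in AMB6, 11.7 in AMB3, 10.1 in AMB9, 9.07 in AMB7 and 8.86 in AMB5. AMB8 and AMB10 were high and close together, and AMB5 and AMB7 low. ACACA, the cytosolic carboxylase of synthesis, ranged from 141 CPM in AMB6 to 195 in AMB5, with a median of 165. ACLY, which makes cytosolic acetyl-CoA from citrate, ranged from 235 CPM in AMB6 to 353 in AMB5, with a median of 320.0, and its range of 0.59 was 0.33 without AMB6. FASN, the fatty acid synthase, ranged from 284 CPM in AMB3 to 451 in AMB6, with a median of 372. SCD, the desaturase that makes oleate, ranged from 350.5 CPM in AMB7 to 658 in AMB3, with a median of 422, and AMB10 had 636 CPM. For FASN and SCD the same library, AMB3, was at opposite ends.

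Of the 8 elongases and desaturases, ELOVL1 differed most. ELOVL1, the elongase of saturated very long chain fatty acids, had 43.1 CPM in AMB10, 41.3 in AMB4, 29.8 in AMB8, 25.2 in AMB6, 21.8 in AMB7, 16.9 in AMB9, 16.5 in AMB5 and 13.6 in AMB3. AMB10 and AMB4 were high, followed by AMB8, and AMB3, AMB5 and AMB9 were low. The summed myelin markers had the same 3 highest and the same 3 lowest libraries, with 5171 CPM in AMB10, 4239 in AMB4 and 2882 in AMB8, against 1375 in AMB9, 823 in AMB3 and 805 in AMB5. All 11 of these markers were detected in every library. The relation of ELOVL1 to their sum is given below, and its cause was not tested.

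ELOVL2, an elongase of polyunsaturated fatty acids on the way to docosahexaenoic acid, ranged from 50.5 CPM in AMB5 to 94.9 in AMB10, with a median of 63.4. ELOVL4, of ultra long chain fatty acids, ranged from 55.4 CPM in AMB6 to 91.5 in AMB10, with a median of 72.2. ELOVL5, another polyunsaturated elongase, ranged from 66.6 CPM in AMB5 to 104 in AMB10, with a median of 83.0, and its range of 0.64 was 0.41 without AMB10. In these 3 elongases the highest level lay in AMB10. ELOVL6, the elongase of palmitate, was lowest in AMB8 and AMB10, 57.1 and 68.2 CPM, and highest in AMB9 with 93.0, and its range of 0.70 was 0.45 without AMB8. ELOVL7, an elongase of low level in these libraries, ranged from 1.70 CPM in AMB5 to 2.94 in AMB8, with a median of 2.33 CPM. The level in AMB5 rests on 74 counts, with a 95% Poisson interval of 1.34 to 2.14 CPM. At that depth the range of ELOVL7, 0.78, is less sure than those of the other elongases and desaturases. FADS1, the delta-5 desaturase, ranged from 65.9 CPM in AMB6 to 101 in AMB10, with a median of 75.001. FADS2, the delta-6 desaturase, ranged from 149 CPM in AMB7 to 201 in AMB10, with a median of 179. Both desaturases were highest in AMB10, with ranges of 0.62 and 0.44.

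The widest differences were found among genes of fatty acid uptake, carriage and sensing, of which 6 of 9 had a range of at least 1, against 36.1% of all genes kept, and 3 one of 2 or more, against 9.0%. The 3 were LPL, FFAR4 and FABP5, and FABP5 had such a range neither without AMB4 (0.86) nor when summed with a second row of the same description (0.72). LPL, the lipase that frees fatty acids from lipoproteins (chromosome 8, 18031441 to 18059938), stood at 247 CPM in AMB8, 220.0 in AMB10, 106 in AMB3, 74.95 in AMB4, 70.1 in AMB5, 69.8 in AMB6, 43.2 in AMB9 and 34.0 in AMB7. AMB8 and AMB10 lay apart above the rest, AMB3 came next, and the range of 2.86 exceeded that of 97.0% of all genes kept. The 3 libraries highest for LPL were also the 3 highest for the summed hippocampal markers: AMB8 had 1076 CPM, AMB10 had 923 and AMB3 had 550.5, with 343 to 503 CPM in the others. The markers did not move alike: FIBCD1 was highest in AMB8 (399.5 CPM), AMB10 (366 CPM) and AMB3 (83.9 CPM), whereas NEUROD6 was highest in AMB5 and, for AMB8, AMB10 and AMB3 in that order, had 301, 211 and 179.8 CPM. All 6 markers were detected in every library, and their part in the LPL values was not tested.

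CD36, a scavenger receptor that takes up fatty acids, had 14.6 CPM in AMB3, 12.6 in AMB5, 11.7 in AMB4, 11.01 in AMB9, 9.73 in AMB10, 7.89 in AMB6, 5.77 in AMB7 and 4.91 in AMB8. AMB3, AMB5 and AMB4 were high and AMB8 and AMB7 low, so that AMB8 was highest for LPL and lowest for CD36. FABP3, a fatty acid carrier of neurons and muscle, stood at 242 CPM in AMB5, 154 in AMB9, 143 in AMB6, 134 in AMB4, 132 in AMB3, 116 in AMB7, 85.8 in AMB10 and 69.8 in AMB8. AMB5 lay above all others and AMB8 and AMB10 below, and the range of 1.79 was 1.14 without AMB5. FABP7, the fatty acid carrier of radial glia and astrocytes, ranged from 111 CPM in AMB7 to 199 in AMB3, with a median of 154.

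**Figure D4:**
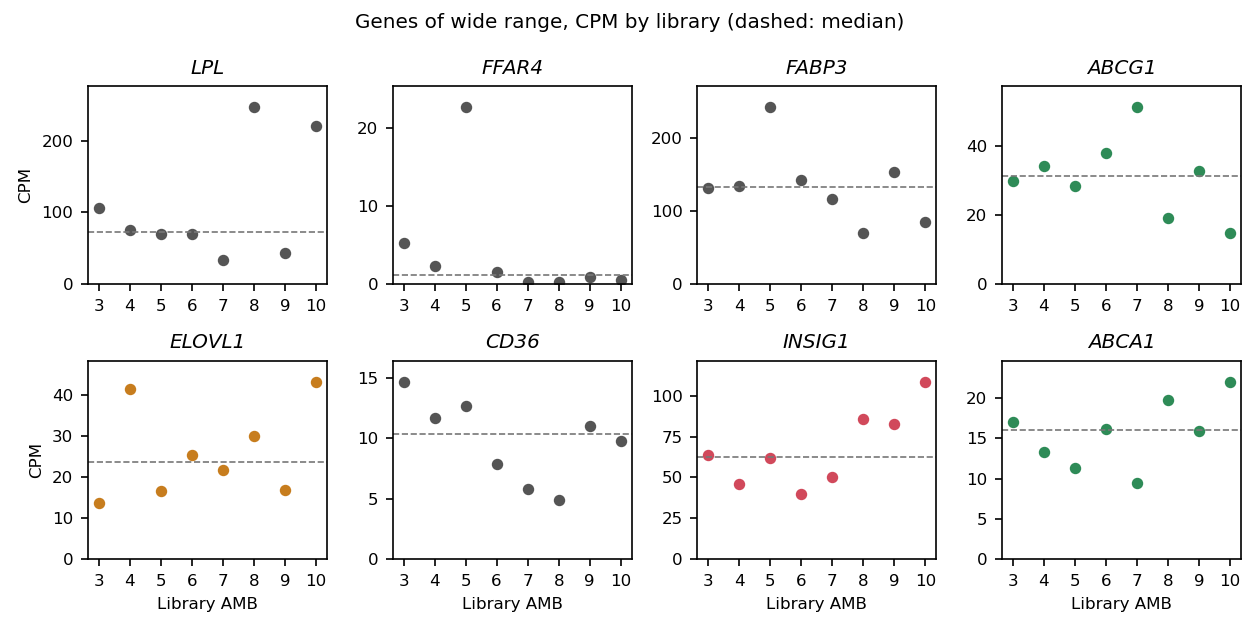
CPM (y axis, from 0) of 8 genes in each library (x axis, the number of the AMB library), 1 panel per gene with its median as a dashed line. LPL is highest in AMB8 and AMB10, in which ABCG1, FABP3 and FFAR4 are among the lowest, and FFAR4 is highest in AMB5.

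FFAR4, a cell surface receptor for long-chain fatty acids (chromosome 11, 40285248 to 40309267), had 22.7 CPM in AMB5, 5.34 in AMB3, 2.37 in AMB4, 1.55 in AMB6, 0.955 in AMB9, 0.600 in AMB10, 0.329 in AMB8 and 0.322 in AMB7. AMB5 lay apart above the next library, AMB3, and AMB7, AMB8 and AMB10 were lowest. The level in AMB7 rests on 23 counts, with a 95% Poisson interval of 0.204 to 0.483 CPM. FFAR4 had the largest range of the 44 genes, 5.99, larger than that of 99.9% of all genes kept, and it was still 3.92 without AMB5.

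FABP5, a fatty acid carrier of neural and epidermal cells, showed how much a level can depend on which rows are counted. Under its symbol (chromosome 8, 76884723 to 76889977) it stood at 24.9 CPM in AMB9, 23.8 in AMB8, 19.1 in AMB5, 17.8 in AMB6, 15.8 in AMB10, 14.7 in AMB7, 13.7 in AMB3 and 1.23 in AMB4. AMB4 lay far below the other libraries, with 79 counts and a 95% Poisson interval of 0.977 to 1.54 CPM, and the range of 4.30 was 0.86 without AMB4. A single library so far from the rest, by Dixon's criterion for 8 samples, was found in 1 of the 44 genes and in 5.07% of all genes kept. A further protein-coding row, LOC100998438 (chromosome 9, 112763373 to 112764056), carries the description fatty acid-binding protein 5. It spans 684 bases, where FABP5 spans 5255. LOC100998438 had 34.9 CPM in AMB3, 34.0 in AMB4, 33.9 in AMB10, 22.5 in AMB8, 21.4 in AMB9, 19.7 in AMB5, 17.5 in AMB6 and 15.4 in AMB7. Here AMB4 was among the 3 highest libraries.

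FABP5 took 3.5% of the counts of both rows in AMB4, 28.1% in AMB3, 31.9% in AMB10 and between 48.8% and 53.8% in the other 5 libraries. Summed, both rows stood at 49.7 CPM in AMB10, 48.5 in AMB3, 46.3 in AMB8 and in AMB9, 38.7 in AMB5, 35.4 in AMB6, 35.2 in AMB4 and 30.1 in AMB7. AMB4 was no longer the lowest library, and the range of the sum was 0.72, below the median range of all genes. The 4 other rows named for FABP5, all pseudogenes, added at most 0.295 CPM each. How reads that match several rows were divided is not given in the sources used here. The levels of FABP5 and of LOC100998438 are therefore uncertain one by one.

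**Figure D5:**
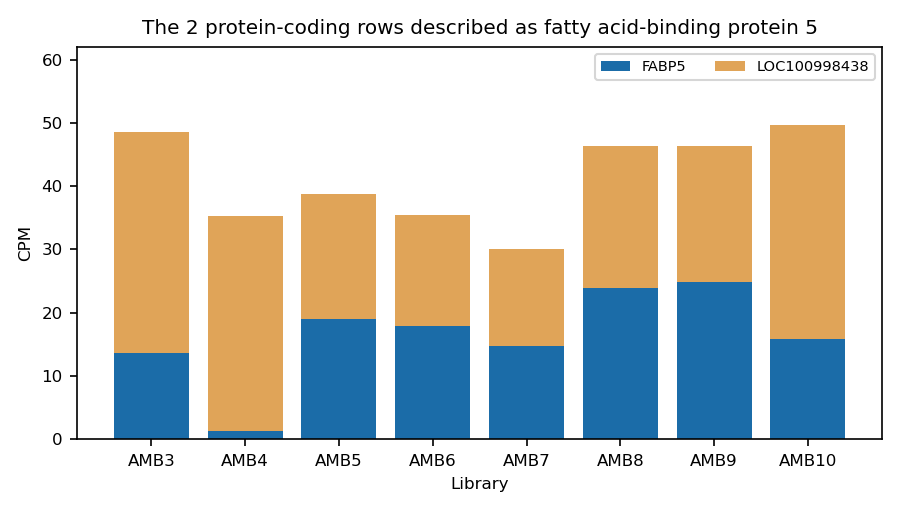
CPM (y axis, bars from 0) of FABP5 (blue) and of LOC100998438 (orange, stacked) in each library (x axis). The blue part nearly vanishes in AMB4, at 1.23 CPM, while the total height there, 35.2 CPM, lies within the span of the other libraries.

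Perilipin-2, a coat protein of lipid droplets, was also spread over several rows. LOC101004055 and LOC101000339, both on chromosome 13, carry that description and together stood at 55.03 CPM in AMB5, 40.8 in AMB9, 39.6 in AMB8, 37.9 in AMB4, 36.6 in AMB6, 30.4 in AMB7, 29.9 in AMB10 and 26.0 in AMB3. AMB5 was highest and AMB3 lowest, a range of 1.08. Alone, LOC101004055, which spans 1882 bases, had a range of 1.18, and LOC101000339, which spans 21192, had one of 0.93. PLIN3, a droplet coat protein that binds early droplets, ranged from 6.98 CPM in AMB5 to 13.96 in AMB8, with a median of 11.1, just short of a range of 1 (0.997). CPT1A, which passes long-chain fatty acids into mitochondria, had 38.4 CPM in AMB10, 29.5 in AMB4, 27.8 in AMB8, 27.6 in AMB6, 25.4 in AMB3, 25.2 in AMB9, 23.1 in AMB5 and 18.9 in AMB7. AMB10 was high and AMB7 low, and the range of 1.02 was 0.63 without AMB10. CPT1C, its neuronal relative of the endoplasmic reticulum, ranged from 65.8 CPM in AMB4 to 79.8 in AMB5, with a median of 71.7, the second smallest range of the 44 genes at 0.28.

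Other genes of these pathways were described for comparison, and 54 of 58 with a row passed the filter. Of these 13 (24.1%) had a range of at least 1, against 36.1% of all genes kept, and 3 a range of 2 or more, against 9.0%. Their median range was 0.65, against 0.77 for all genes, and the counts by list that follow stand beside the same 36.1%. Among 10 further sterol synthesis enzymes 2 had a range of at least 1.

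Of 12 further genes of sterol uptake and trafficking, 6 had a range of at least 1, with a median range of 0.91. MYLIP, a ubiquitin ligase that removes lipoprotein receptors and is induced by sterol, stood at 66.4 CPM in AMB7, 43.9 in AMB6, 41.7 in AMB9, 36.7 in AMB5, 34.8 in AMB4, 26.1 in AMB3, 16.9 in AMB10 and 12.8 in AMB8. AMB7 was highest and AMB8 and AMB10 lowest, as for ABCG1. ABCA2, a lipid transporter, ranged from 192 CPM in AMB9 to 271 in AMB10, around a median of 226.

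Of 16 genes of fatty acid synthesis, activation and elongation, 3 had a range of at least 1. MLXIPL, a carbohydrate-sensing transcription factor of lipogenesis, ranged from 0.935 CPM in AMB10 to 7.12 in AMB7, with a median of 1.89, while HACD3, a dehydratase of elongation, ranged from 301 CPM in AMB6 to 369 in AMB3, with a median of 344. Among 16 genes of transport, droplets and oxidation 2 had such a range. PPARA, a fatty acid sensing nuclear receptor, ranged from 1.404 CPM in AMB5 to 3.84 in AMB10, with a median of 2.27, and MGLL, the monoacylglycerol lipase, from 205 CPM in AMB3 to 315 in AMB6, with a median of 267. Of the 4 adipocyte markers, ADIPOQ was at most 0.299 CPM, while PLIN1, a droplet coat protein, ranged from 6.54 CPM in AMB9 to 10.04 in AMB6, with a median of 7.42. The adipocyte genes ADIPOQ, CIDEC and LEP each had no count in some library.

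Each of the 44 genes was related over the 8 libraries to the summed level of markers of 5 cell types, alongside all other genes kept. No gene of the 44, and none of the 16874, reached an adjusted p under 0.05 by the exact 2-sided permutation test of Spearman's rho with Benjamini-Hochberg adjustment over 84370 tests (0.0% of all genes for each list). None of the 44 did by Pearson's r, for which the smallest adjusted p among them was 0.161. The smallest p that Spearman's rho over 8 libraries can give in the exact permutation test is 4.96e-05, which passes this adjustment only where many tests share it. At an unadjusted p under 0.05, 9 of the 44 genes (20.5%) varied with the astrocyte sum, all positively, against 18.8% of all genes in either direction and 9.99% positively. They were ELOVL2, ABCA1, PLIN3, LPL, CPT1A, SREBF1, ACACB, SCD and ELOVL5. With the neuron sum 5 (11.4%) varied, all positively: the sterol enzymes FDPS, FDFT1, SQLE and HMGCS1, and ACLY, against 5.97% of all genes in either direction and 3.21% positively. The remaining counts were 4 (9.09%) with the microglia sum, against 4.17% in either direction and 2.29% negatively (NSDHL, ACLY, FDFT1 and SREBF2, all negative), 3 (6.82%) with the myelin sum, against 7.31% in either direction and 3.69% positively (ELOVL1, ACACB and CPT1A, all positive), and 0 with the endothelial sum, against 2.38%. Single libraries moved these counts: the astrocyte count was 4 without AMB10, the myelin count 5 without AMB3 and 1 without AMB6, and the microglia count 2 without AMB4 or AMB7 and 7 without AMB8. The neuron count was 1 without AMB4 or AMB6, 2 without AMB5 or AMB7 and 8 without AMB10. The endothelial count was 1 without AMB3, AMB5 or AMB7 and 2 without AMB4 or AMB8. Shares of all genes with a library left out were not computed, so these changed counts have no background beside them.

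For each of the 4 marker lists with such a relation, the gene of largest rho by size is given (for microglia the rho is negative), and none of these passed the adjustment. ELOVL1 and the myelin sum had a Spearman's rho of 0.976 (exact permutation p = 0.000397, adjusted p = 0.256) and a Pearson's r of 0.976 (exact permutation p = 0.000149, adjusted p = 0.174), and r was 0.935 without AMB4 and AMB10, the 2 libraries farthest from the median. FDPS and the neuron sum had a rho of 0.976 (exact permutation p = 0.000397, adjusted p = 0.256) and an r of 0.955 (exact permutation p = 9.92e-05, adjusted p = 0.161), with r 0.841 without AMB5 and AMB9. That sum differed little between some libraries, with 6587 CPM in AMB6 and 6589 in AMB4, and 6775 in AMB7 and 6786 in AMB10. Its ranks there rest on near ties. The neuron markers did not move alike. SNAP25 was highest in AMB10, where STMN2 was lowest, and RBFOX3 was highest in AMB7, where SNAP25 was lowest. ELOVL2 and the astrocyte sum had a rho of 0.952 (exact permutation p = 0.00114, adjusted p = 0.301) and an r of 0.923 (exact permutation p = 0.00109, adjusted p = 0.288), with r 0.897 without AMB7 and AMB10. NSDHL ran against the microglia sum, with a rho of -0.905 (exact permutation p = 0.00456, adjusted p = 0.400) and an r of -0.845 (exact permutation p = 0.00697, adjusted p = 0.400), and r was -0.722 without AMB6 and AMB8. These values rest on 8 libraries of unknown kinship, which may include technical repeats.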

How the data were processed

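Hippocampal RNA was measured in 8 libraries. Per the labels' protocols, 25 ng of column-purified total RNA went into strand-specific libraries. The authors deposited estimated counts per RefSeq gene (raw columns, per the file headers) and log2 normalized values, centred per gene. The submitters' processing notes name DESeq, with no version or role stated. How reads were aligned and counted, whether strand was used, and the build: not given in the sources used here. All 37053 identifiers matched RefSeq's Panubis1.0 gene table, and the 44 genes had equal start and end there.

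Estimated counts were rounded. Genes passed edgeR 4.0.16 filterByExpr (minimum count 10, no groups). CPM used library totals times TMM factors, and log2 CPM a prior count of 2. Relations used exact permutations (Python 3.11.15, tested on simulated data). DESeq2 1.42.0 gave alternative size factors. On the log2 scale none of the 5 marker sums used in relations had a gap above 0.5 of its range that parted the libraries into clusters of 2 or more. All 44 genes are named, those with a range of at least 1 with every library. Other lists are represented by their genes of largest range and highest median CPM. Some genes that this rule names are not reported here. Members and lists were chosen with earlier results of these data known. IDI1, ABCA1, ACACA, ELOVL2 and FABP3 overlap a gene of the opposite strand with a median of at least 1 CPM, and their reads cannot be told apart if strand was not used. Totals of 40405016 to 71648801 counts make counting error small except where given, and intervals cover counting error only.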

Additional observations from a re-analysis of the deposited data

Results flagged for a closer look

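FABP5 had a single library far from the other 7. AMB4 was the lowest, and its gap to the next library was 0.799 of the whole log2 range, above Dixon's 95% critical value for 8 samples. This was the 1 such gene among the 44, and 856 of 16874 genes (5.07%) had such a library. The 95% value lets 1 in 20 pass only for independent, normally distributed values, and whether these values are so was not tested. With LOC100998438 added, the largest gap was 0.314 of the range and no library stood apart.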

How the results depend on the processing

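The numbers of genes with a range of at least 1 and at least 2, highest in AMB10 and lowest in AMB6, the median range and the pairs of sterol synthesis enzymes stayed within 1.5 times, or for the median range within 1 SD, under DESeq2 size factors, plain library totals, no filter, a prior count of 0.5 and the deposited log2 values, as far as each was run. Plain totals moved no library's median by more than 0.0671 on the log2 scale. Leaving out 1 library at a time gave 9 to 14 genes with a range of at least 1 (9 without AMB7), 2 to 3 with at least 2, 7 to 20 pairs, 18 to 23 genes highest in AMB10, 11 to 15 lowest in AMB6, and a median range of 0.77 to 0.85. Under plain totals 8 genes were lowest in AMB6. For the ranges and the extremes, shares of all genes were not computed in these settings. Summing FABP5 with LOC100998438, an alternative chosen after seeing the data, left 13 genes with a range of at least 1 and 2 with at least 2, and counting the summed perilipin-2 rows made the former 15. Under plain totals LSS had a range of 1.02 and PLIN3 of 1.09. Relations to the neuron sum at an unadjusted p under 0.05 numbered 3 under plain totals. They also numbered 3 with the median of markers in place of their sum, and 1 gene related to the endothelial sum by Pearson's r. Shares of all genes in these settings were not computed, and the cause of the differences was not tested. No paired analysis was possible because the labels give no groups that share replicate numbers. Low counts limit FFAR4, ELOVL7, MLXIPL and PPARA.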
